A study of Mus musculus with 30 samples.

Results

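The p53 targets and apoptosis regulators described here are 9 genes taken by symbol: Cdkn1a, Ccng1, Mdm2, Trp53inp1, Gadd45a, Fas, Bbc3, Bax and Birc3. The platform annotation named a probe set for 8 of the 9, and these 8 stood among 12393 measured genes. The 8 genes had 14 probe sets, of which the brightest on average was kept for each gene and the others served as a check. Bax, the pore-forming member of the set, was not analysed here. All values are the deposited log2 values, so a difference of 1 is a doubling.

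The study profiled total RNA from 30 mouse retinas, 1 per pup and array, in 10 groups of 3 pups. Oxygen-induced retinopathy (OIR) was produced in mouse pups, which are kept at 75% oxygen for 5 days from postnatal day 7 (P7) and then return to room air. Of the 8 injected OIR groups, 4 were injected into the vitreous at P5, before oxygen, and 4 at P12, on return to room air. On each day the injection held 100000 endothelial colony-forming cells (ECFC), 10000 CD34+ cells, the combination of 110000 cells, or saline. An OIR group and a normoxia group were untreated. The labels give neither the species of the injected cells nor the mouse strain. Each retina was labelled P17, but the protocol names P12 and P17 as days of collection, and the design text pairs injection at P5 with P12. Day of injection and day of collection therefore cannot be told apart in any comparison of a P5 group with another kind of group.

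The transcription factor p53 is held low by Mdm2, the ubiquitin ligase that marks it for degradation. When DNA damage, hypoxia or other stress frees it, p53 switches on genes that halt the cell cycle (Cdkn1a), assist repair (Gadd45a), restrain p53 itself (Mdm2, Ccng1) or favour cell death (Bax, Bbc3, Fas). In the retina, apoptosis removes surplus neurons and vessel cells during development, and high oxygen kills capillary endothelium. Birc3, an inhibitor of apoptosis protein, is a target of the transcription factor NF-kB rather than of p53, and shields cells from death by the tumour necrosis factor receptors.

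Promoter windows from RefSeq (GRCm38.p6), from 250 bases before to 50 after the annotated start, were at hand for 8 of the 9 genes, Bax included and Trp53inp1 not. The window was searched on both strands for the p53 half-site, and 5 of the 8 genes held one (Cdkn1a, Ccng1, Mdm2, Gadd45a and Bax). Of all 27025 genes with a window, 9.55% held a half-site and 0.074% a pair of half-sites with a spacer of 0 to 13 bases. Of their 32851 windows 8.36% held a half-site and 0.0731% such a pair. Among the 8 genes, Cdkn1a alone held such a pair. The stretches below are shown because they set Cdkn1a, the canonical p53 target, beside 3 other targets of the set. The Cdkn1a stretch is chr17:29090871-29090978, plus strand, and its capitals mark 2 CATG cores with 6 bases between them. This motif overlaps a half-site, lies 48 to 35 bases before an annotated start and occurs in 0.712% of windows. The window of a further Cdkn1a start held no half-site. In the other lines the capitals mark the half-site: chr11:40755447-40755486, minus strand, for Ccng1, chr10:117710920-117710959, minus strand, for Mdm2, and chr6:67037423-67037462, minus strand, for Gadd45a. A match is a description of the letters and not evidence of binding.
Cdkn1a: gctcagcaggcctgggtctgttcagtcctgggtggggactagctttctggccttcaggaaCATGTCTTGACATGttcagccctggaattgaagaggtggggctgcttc
Ccng1: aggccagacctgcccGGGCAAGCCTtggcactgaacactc
Mdm2: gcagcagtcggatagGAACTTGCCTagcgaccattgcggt
Gadd45a: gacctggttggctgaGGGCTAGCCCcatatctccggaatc

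Array medians lay between 8.16 and 8.49, and the correlation between replicates, taken over probe sets, was 0.964 to 0.997. Rod markers, which define the labelled tissue, averaged 13.07 to 13.46 in every array. Some features of the arrays touch the results below. Lens markers averaged 7.24 to 13.92 in the P5 groups and 5.85 to 9.02 in all others. Hybridisation control probe sets, which report on the array step and not on the tissue, averaged 13.23 to 13.65 on the 12 P12 arrays and 11.86 to 12.96 on all others, with no overlap. P5 CD34+ replicate 1 stood apart from replicates 2 and 3: its lens mean was 7.24 against 13.92 and 13.83, and its microglia mean 10.01 against 7.74 and 8.55. The ganglion cell mean differed among all 3, at 9.43, 11.66 and 10.30 in replicates 1, 2 and 3. The called differences of the P5 CD34+ group are therefore given with and without it. In whole retina, fewer cells of a type and less RNA per cell cannot be told apart.

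Across the 10 groups, 7 of the 8 genes differed in limma's test of any difference at an adjusted p under 0.05, where 62.3% of all genes did. Gadd45a was the exception (adjusted p = 0.135), with arrays from 10.59 to 11.40. The 8 genes did not share a pattern. Cdkn1a had its highest mean in untreated OIR (8.95 ± 0.37) and its lowest in normoxia (7.48 ± 0.25, SD, n = 3). Mdm2 and Ccng1 had theirs in P12 saline, at 10.95 ± 0.07 and 11.70 ± 0.05. Trp53inp1 was highest in normoxia (10.83 ± 0.16) and lowest in the 4 P12 groups (10.01 to 10.32 over 12 arrays). Fas stood out in a single group, P5 CD34+, at 5.74 ± 0.51. The means of the other 9 groups ran from 4.42 to 4.68, and no step between neighbours in that order passed the test except the last one, to P5 CD34+ (1.06, adjusted p = 0.000314). For Cdkn1a no step between neighbouring groups passed, so neighbours in its order did not differ beyond their spread.

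**Figure D1:**
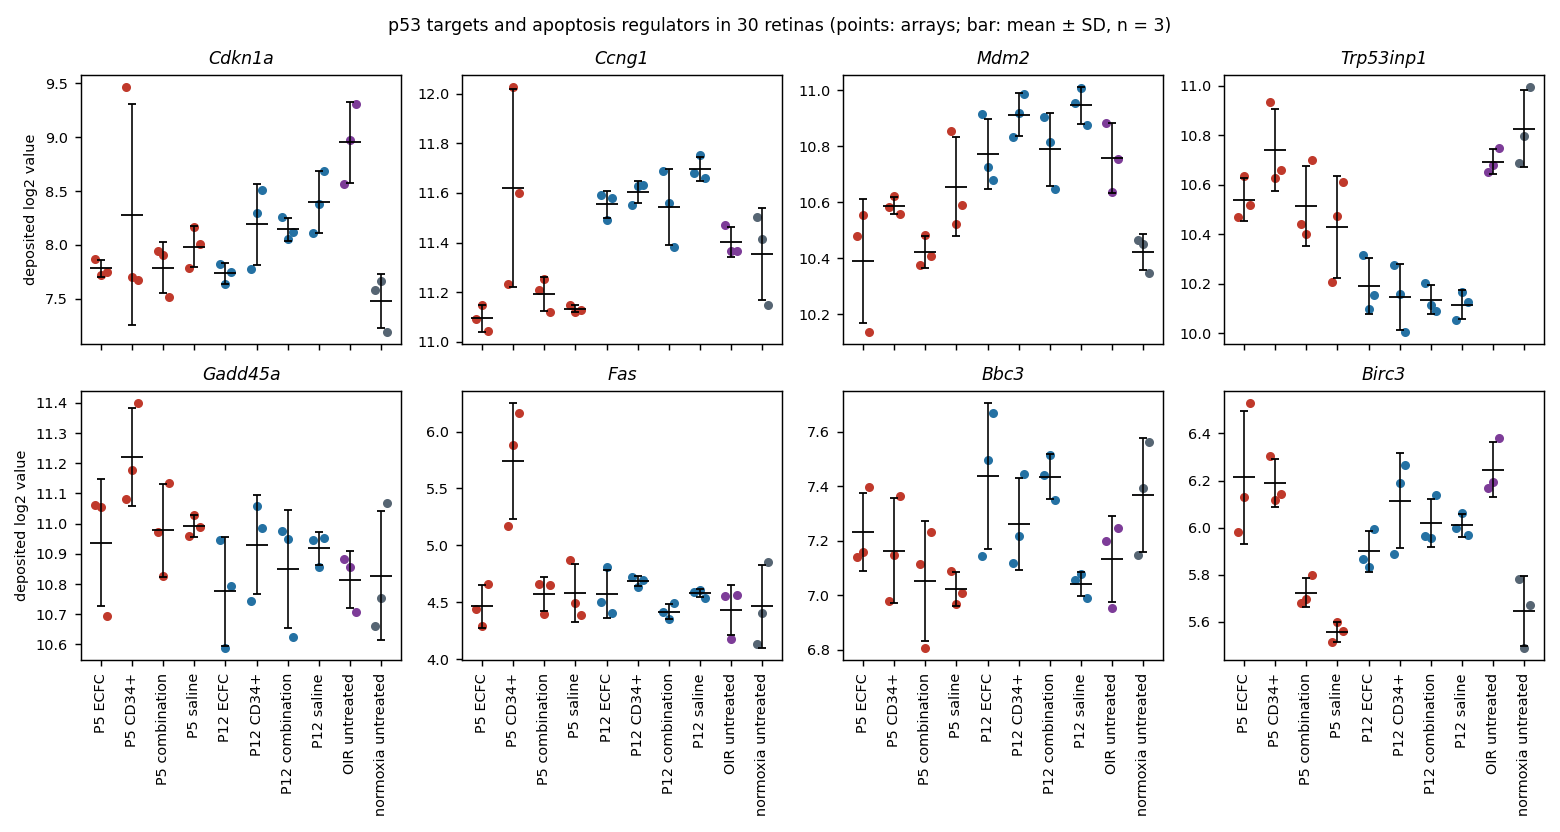
Deposited log2 values of the 8 genes in the 10 groups, with points for arrays and bars for the mean ± SD (n = 3). Cdkn1a is highest in untreated OIR, Trp53inp1 is lowest in the P12 groups, Fas is raised in P5 CD34+ retinas only, and Birc3 is lowest in P5 saline and normoxia.

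Untreated OIR retinas were first set against untreated normoxia. Cdkn1a, which codes the cell cycle inhibitor p21, read 8.57, 8.97 and 9.31 in OIR retinas, against 7.58, 7.67 and 7.19 in normoxia. All 3 OIR arrays lay above all 3 normoxia arrays. Here and below, such a separation of arrays is a description, and its share over all genes was not counted. The difference was 1.47 ± 0.31 (SE), 2.77-fold, with an adjusted p of 0.00471 (limma, Benjamini-Hochberg over 12393 genes, as in every sentence below that gives an adjusted p). Birc3 read 6.17, 6.19 and 6.38 in OIR, against 5.78, 5.49 and 5.67 in normoxia. Its arrays did not overlap either, and it rose by 0.60 ± 0.12 (1.52-fold, adjusted p = 0.00239). These 2 of 8 genes passed, where 4.56% of all genes did.

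No other gene of the set passed. Mdm2 read 10.88, 10.64 and 10.75 in OIR, against 10.47, 10.45 and 10.35 in normoxia, with no overlap, but the difference of 0.34 ± 0.10 missed the threshold (adjusted p = 0.0648). It passed with eBayes trend and robust settings (0.049) and without the dimmest 30% of genes (0.0494). Ccng1, whose cyclin G1 product helps return p53 to its resting level, differed by 0.05 (95% interval -0.21 to 0.31) and Gadd45a by -0.01 (-0.28 to 0.26). The death genes lay close to 0 as well: Fas, the receptor for Fas ligand, differed by -0.03 (-0.44 to 0.37), and Bbc3, coding the BH3-only protein PUMA, by -0.24 (-0.52 to 0.05). Trp53inp1, a stress protein that boosts p53 activity, differed by -0.13 (-0.36 to 0.09). The intervals hold a doubling for none of these 6 genes, so the 2.77-fold size of the Cdkn1a difference lies outside all of them. Fas read 4.13 to 4.86 on these arrays, within the 3.61 to 5.41 of absent genes described below. Its interval therefore cannot bound a change in its transcript. The call on Cdkn1a held in 15 of 16 alternatives and was lost with the second probe set (1.02, adjusted p = 0.0742). That on Birc3 held in 14 of 15 and turned to -0.19 with its dim second probe set. In normoxia the kept Birc3 probe set read 5.49 to 5.78, little above the range of absent genes.

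Other genes of the pathway were taken from lists written out by role. Of all genes 3.59% rose and 0.968% fell in this comparison, the shares to set beside each count here and in the next paragraph. Of 22 other p53 targets 2 rose and 0 fell: Aen, an exonuclease of apoptosis, by 0.48 ± 0.13 (adjusted p = 0.0393), and Ddit4, a hypoxia- and stress-induced brake on mTOR, by 0.39 ± 0.11 (adjusted p = 0.0495). Pmaip1, coding the BH3-only protein NOXA, differed by 0.84 ± 0.26 and Phlda3, an inhibitor of Akt, by 0.79 ± 0.34, and neither passed (adjusted p = 0.0687 and 0.198). Of 11 regulators of p53, 1 rose, the checkpoint kinase Chek2, by 0.54. Mdm4, the partner of Mdm2, differed by 0.02 (adjusted p = 0.941). In the death-promoting BCL2 family 1 of 8 rose, the pore former Bak1 (0.78 ± 0.20), and in the survival branch 0 of 4, with Bcl2l1, coding BCL-XL, at -0.04.

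Among 12 caspases and apoptosome genes 2 rose, Casp8, the initiator downstream of death receptors, by 0.67 and Casp6 by 0.55. Of 14 death receptor genes 1 rose, the tumour necrosis factor receptor Tnfrsf1a, by 1.07 ± 0.29. Fasl, the ligand of Fas, differed by -0.21 (adjusted p = 0.621). Of 6 inhibitor of apoptosis genes and antagonists, Birc5, which also serves mitosis, rose by 1.56 ± 0.22 and Xiap, an inhibitor of caspases, fell by 0.50. Of 10 NF-kB targets 3 rose: Tnfaip2 by 1.89, Icam1, the leukocyte adhesion molecule, by 1.06, and Relb by 0.57. The median difference was 0.59 over the NF-kB list, 0.08 over the other p53 targets and -0.02 over all genes. Cell markers moved in the same arrays: 4 of 7 proliferation, 4 of 8 endothelial, 3 of 10 microglia and 2 of 8 gliosis markers rose. The microglia mean was 7.85 to 8.18 in OIR and 6.97 to 7.03 in normoxia. The gliosis mean was 8.20, 8.71 and 11.03 in OIR replicates 1, 2 and 3, and 7.40 to 7.54 in normoxia. Over 30 arrays Cdkn1a correlated most closely with the proliferation (r = 0.64), gliosis (0.62) and microglia (0.55) means. Without OIR replicate 3 the genes called numbered 242 rather than 565. The part of these cells in the Birc3 and Cdkn1a differences was not tested.

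**Figure D2:**
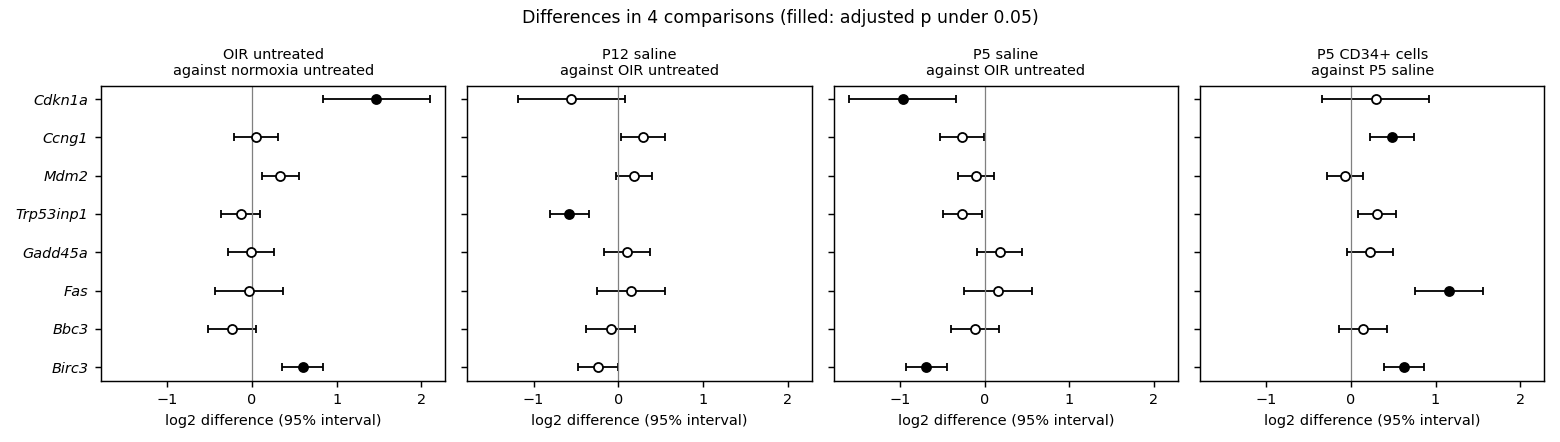
Log2 differences of the 8 genes with 95% intervals in 4 comparisons, filled where the adjusted p was under 0.05. Cdkn1a and Birc3 are higher in OIR than in normoxia and lower in P5 saline than in OIR, Trp53inp1 alone passes in P12 saline against OIR, and Fas, Ccng1 and Birc3 are higher in P5 CD34+ retinas than in P5 saline.

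The saline groups were next set against untreated OIR. These comparisons do not isolate the injection, given the array and collection conditions described above. With saline at P12, Trp53inp1 read 10.05, 10.17 and 10.12, against 10.65, 10.68 and 10.75 in untreated OIR. The groups did not overlap, and Trp53inp1 fell by 0.58 ± 0.11 (1.49-fold lower, adjusted p = 0.000605). It was the only gene of the 8 to pass, where 21.3% of all genes did. Cdkn1a read 8.11, 8.38 and 8.69 in P12 saline, overlapping the OIR arrays, and differed by -0.56 ± 0.31 (adjusted p = 0.207). The 12 P12 arrays, where Trp53inp1 was lowest, were also those with the highest hybridisation control means. With that mean as a covariate the difference was -0.39 (adjusted p = 0.0731), and with the second probe set of the gene it turned to 0.39 (adjusted p = 0.143).

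Against normoxia, P12 saline retinas had 5 of the 8 genes past the threshold, where 27.5% of all genes passed. Mdm2 read 10.95, 11.01 and 10.88 in P12 saline, above the 3 normoxia arrays, and rose by 0.52 ± 0.10 (adjusted p = 0.000596). Cdkn1a rose by 0.91 ± 0.31 (adjusted p = 0.0278), Birc3 by 0.36 ± 0.12 (adjusted p = 0.0215) and Ccng1 by 0.34 ± 0.13 (adjusted p = 0.0462). Trp53inp1 fell by 0.71 ± 0.11 (adjusted p = 5.03e-05). This comparison shares its normoxia arrays with the one of untreated OIR. The Cdkn1a call was lost without P12 saline replicate 2 or 3 or normoxia replicate 3 (adjusted p = 0.0609, 0.123 and 0.111), Ccng1 without any 1 of P12 saline replicates 1, 2 and 3 or normoxia replicates 2 and 3 (0.0651 to 0.216), and Birc3 without P12 saline replicate 1 or 2 or normoxia replicate 2 (0.05 to 0.113). With the hybridisation control mean in the fit Ccng1 differed by 0.20 (adjusted p = 0.322) and Birc3 by 0.37 (adjusted p = 0.0602), and Birc3 was also lost under quantile normalization (0.0769). Other probe sets gave 0.54 for Cdkn1a (adjusted p = 0.229), -0.054 and 0.23 for Ccng1, and 0.20 for Birc3, none of them called. The Mdm2 rise held in 14 of 15, but its second probe set gave -0.08.

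With saline at P5 both genes that were high in untreated OIR were lower than there. Injection and day of collection cannot be told apart in this comparison. Birc3 read 5.51, 5.60 and 5.56 in P5 saline, against 6.17, 6.19 and 6.38 in OIR, and fell by 0.69 ± 0.12 (1.61-fold lower, adjusted p = 0.000863). Cdkn1a read 7.79, 8.16 and 8.01, against 8.57, 8.97 and 9.31, and fell by 0.97 ± 0.31 (1.95-fold lower, adjusted p = 0.0497). The arrays did not overlap for either gene. These 2 of 8 passed where 8.69% of all genes did, and against normoxia 1 of 8 passed, where 8.1% of all genes did: Trp53inp1, which fell by 0.40 ± 0.11 (adjusted p = 0.0266, lost without P5 saline replicate 1 or 2 or normoxia replicate 2 or 3, at 0.0524 to 0.144). With the lens mean in the fit the Trp53inp1 difference was -0.13 (adjusted p = 0.52), and its second probe set gave 0.28. Birc3 and Cdkn1a differed from normoxia by -0.09 (95% interval -0.33 to 0.15) and 0.50 (-0.13 to 1.14).

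The Cdkn1a call at P5 rests on the threshold: it held in 6 of 16 alternatives, and the adjusted p was 0.0643 to 0.196 without any 1 of P5 saline replicates 1, 2 and 3 or OIR replicates 2 and 3. All 10 measured lens markers rose in P5 saline against OIR, with a mean of 10.55 to 13.59 against 5.85 to 6.83, and with the lens mean as a covariate Cdkn1a differed by -0.02 (adjusted p = 0.989) and Birc3 by -0.60 (adjusted p = 0.0796). Of all genes 3.81% rose and 4.88% fell in P5 saline against OIR. In the same comparison 5 of 9 pigment epithelium markers rose and 4 of 8 endothelial markers fell. Tnfrsf1a fell by 1.01, Relb by 0.82 and Tnfaip3, an NF-kB target that restrains NF-kB, by 0.75. Of 22 other p53 targets 1 rose, Perp, a membrane protein of desmosomes, by 1.78, and 2 fell, Apaf1, the apoptosome scaffold, by 0.46 and Ddit4 by 0.40.

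Set side by side, P5 saline and P12 saline differed in 4 of the 8 genes, where 27.7% of all genes differed. Ccng1 read 11.15, 11.12 and 11.13 at P5, against 11.68, 11.75 and 11.66 at P12, and was lower by 0.56 at P5 (log2 difference -0.56 ± 0.13, adjusted p = 0.00166). Birc3 differed by -0.45 ± 0.12 (adjusted p = 0.00508), Mdm2 by -0.29 ± 0.10 (adjusted p = 0.0397) and Trp53inp1 by 0.31 ± 0.11 (adjusted p = 0.0346). No array of P5 saline overlapped P12 saline for these 4 genes. The same held for Gadd45a, which differed by 0.08 and did not pass (adjusted p = 0.722). Separation by itself therefore shows little here, and its share over all genes was not counted. The Mdm2 call was lost without any 1 of P12 saline replicates 1, 2 and 3 or P5 saline replicates 2 and 3 (adjusted p = 0.0542 to 0.178), and the Trp53inp1 call without any of the same 5 arrays (0.0516 to 0.186) and under quantile normalization or median centring (0.0525 and 0.161). On the other Ccng1 probe sets the difference was -0.20 and -0.41 (adjusted p = 0.362 and 0.0916), and on the second Birc3 probe set -0.38 (adjusted p = 0.104). When the hybridisation control mean entered the fit none of the 4 genes passed (adjusted p = 0.0694 for Birc3 to 0.773 for Trp53inp1), while Fas and Cdkn1a did. Bcl2l11, coding the BH3-only protein BIM, fell by 0.72 ± 0.21 (adjusted p = 0.0125) and Bcl2l1 rose by 0.26 ± 0.07 (adjusted p = 0.00737).

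The P12 cell injections were set against P12 saline. None of the 8 genes passed in any of the 3 cell groups, where 0.0161%, 0% and 0% of all genes passed for ECFC, CD34+ cells and the combination. At an unadjusted p under 0.05, limma gave 1996, 643 and 1226 of 12393 genes, and 2, 0 and 1 of the 8. The 2 genes for ECFC were Cdkn1a and Bbc3. Cdkn1a read 7.83, 7.63 and 7.75 with ECFC, all below 8.11, 8.38 and 8.69 with saline, and the difference was -0.66 ± 0.31 (adjusted p = 0.295).

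Bbc3 read 7.14, 7.50 and 7.67 with ECFC, 7.12, 7.22 and 7.45 with CD34+ cells and 7.44, 7.51 and 7.35 with the combination, against 7.06, 7.08 and 6.99 with saline. All 9 cell-injected arrays lay above the 3 saline arrays, which the 3 comparisons share. The differences were 0.40, 0.22 and 0.39 (SE 0.14 each), with adjusted p of 0.214, 0.925 and 0.497, so none passed. Without ECFC replicate 1 the ECFC difference passed (0.54, adjusted p = 0.0434). The interquartile range of the array values averaged 3.44 with saline and 3.21, 3.33 and 3.23 with ECFC, CD34+ cells and the combination. Over 30 arrays Bbc3 correlated with this range and with the array median at r = -0.62 each. Their part in the Bbc3 differences was not tested. Fas differed by -0.01, 0.10 and -0.16 in the same order, with 95% intervals that reach no further than -0.56 and 0.51. All these Fas values lay within the range of absent genes given below, so the intervals cannot bound a change in its transcript.

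At P5 the groups diverged. In P5 CD34+ retinas 3 of the 8 genes rose against P5 saline, where 8.46% of all genes changed and 3.07% rose. Fas, the death receptor, read 5.17, 5.88 and 6.16 with CD34+ cells, against 4.87, 4.50 and 4.38 with saline. All 3 lay above saline, with replicate 1 the closest, and the difference was 1.16 ± 0.19 (2.23-fold, adjusted p = 0.00208). Only 6.0% of genes had a lower mean than Fas, and in all groups but this one it read 4.13 to 4.87. The Y-linked genes Eif2s3y, Kdm5d and Uty read 3.61 to 5.41 on the 14 arrays with high Xist, where they should be absent, so Fas outside P5 CD34+, and CD34+ replicate 1 at 5.17, lay within the range of absent genes. The fold for Fas is therefore best read as a lower bound.

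Birc3 read 6.30, 6.12 and 6.14 with CD34+ cells, against 5.51, 5.60 and 5.56 with saline, and rose by 0.63 ± 0.12 (1.55-fold, adjusted p = 0.00284). Its saline values lay little above the 5.41 that the absent genes reached. The rise was lost with the dim second Birc3 probe set (0.07, adjusted p = 0.875). Ccng1 read 11.23, 12.03 and 11.60, against 11.15, 11.12 and 11.13, and rose by 0.49 ± 0.13 (1.40-fold, adjusted p = 0.0182). Neither gene's arrays overlapped, but Ccng1 varied far more among the CD34+ arrays (SD 0.40) than among the saline arrays (SD 0.01). Trp53inp1 and Gadd45a also lay above saline on all 3 arrays, by 0.31 and 0.23, and did not pass (adjusted p = 0.0827 and 0.318). Mdm2 differed by -0.07 (95% interval -0.28 to 0.15).

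Cdkn1a showed the widest split among the CD34+ arrays. Replicate 1 read 9.47, the highest value of Cdkn1a on any of the 30 arrays, and replicates 2 and 3 read 7.70 and 7.68, below all 3 saline arrays (7.79, 8.16 and 8.01). The difference was 0.30 ± 0.31 with all 3 arrays (adjusted p = 0.643) and -0.30 without replicate 1 (adjusted p = 0.48). Without that replicate, Fas differed by 1.44 (adjusted p = 6.6e-05), Ccng1 by 0.68 (adjusted p = 0.00117) and Birc3 by 0.57 (adjusted p = 0.0116), so the same 3 genes passed. Ccng1 was no longer called without CD34+ replicate 2 (0.28, adjusted p = 0.0913) or saline replicate 3 (0.49, adjusted p = 0.0583). With only these 6 arrays in the fit no gene of the 12393 passed, and the adjusted p was 0.293 for Fas and Birc3 and 0.439 for Ccng1.

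**Figure D3:**
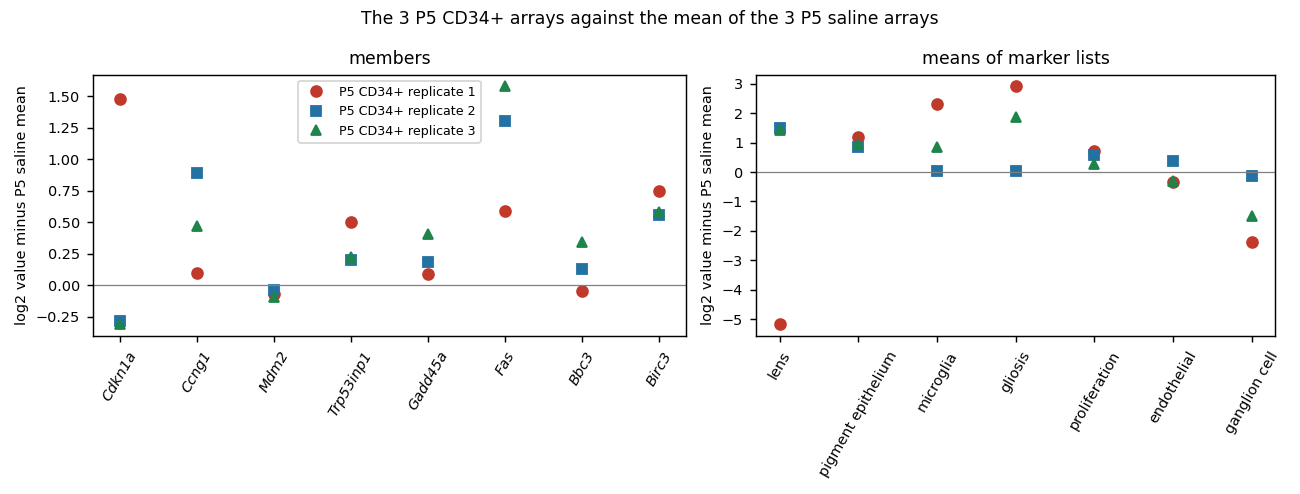
The 3 P5 CD34+ arrays minus the mean of the 3 P5 saline arrays, for the 8 genes and for the means of 7 marker lists (log2). Replicate 1 stands apart for Cdkn1a, lens and microglia, while Fas and Birc3 are above 0 in all 3 replicates.

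Cell markers and pathway genes moved in the same arrays. Pigment epithelium markers averaged 10.62 to 10.94 in P5 CD34+ and 8.81 to 10.55 in P5 saline, and 4 of 9 rose, with and without replicate 1. Microglia markers rose in 3 of 10 genes (0 without replicate 1), proliferation markers in 3 of 7 (0), and all 5 measured ganglion cell markers fell (2). Over all 12393 genes 380 rose and 669 fell with replicate 1, and 304 and 378 without it. Without it the median difference was 0.46 over the microglia, 0.50 over the proliferation and -0.80 over the ganglion cell markers. It was 0.38 over the cyclin-dependent kinase inhibitors and Gadd45 relatives named below. Across 30 arrays Fas correlated most closely with the pigment epithelium (r = 0.60), ganglion cell (-0.59), lens (0.53) and rod (-0.53) means, and Birc3 with the proliferation (0.62), microglia (0.56) and gliosis (0.53) means. These arrays share groups, and the part of those cells in the results was not tested. Of 22 other p53 targets 2 rose, Perp by 1.09 ± 0.28 (adjusted p = 0.0169) and Apaf1 by 0.39 ± 0.12 (adjusted p = 0.0473), and without replicate 1 Perp alone rose and 1 gene fell. Of 8 further cyclin-dependent kinase inhibitors and Gadd45 relatives 4 rose: Gadd45b by 1.55, Cdkn2b by 1.16, Cdkn2c by 0.69 and Cdkn1b by 0.38. Without replicate 1 none of the 4 passed, with Gadd45b at 1.46, Cdkn2b at 0.51, Cdkn2c at 0.53 and Cdkn1b at 0.32. Tnfrsf1a and Cflar, a brake on Casp8 at the death receptors, rose by 1.05 and 0.35, and neither passed without replicate 1 (0.61 and 0.24). Of 10 NF-kB targets Icam1 rose by 0.94 and Relb by 0.58, and without replicate 1 Relb alone passed. Fasl differed by -0.47 ± 0.22 (adjusted p = 0.204). No member of the BCL2 lists or of the caspase list passed, Bcl2l11 included (0.59, adjusted p = 0.0832).

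The other 2 cell groups at P5 gave no called gene among the 8, and none among all genes (percent called 0 for both). At an unadjusted p under 0.05 limma gave 779 genes for ECFC and 978 for the combination, and 2 and 1 of the 8. Birc3 read 5.98, 6.13 and 6.53 with ECFC, all above 5.51, 5.60 and 5.56 with saline. The difference of 0.65 ± 0.12 was as large as with CD34+ cells, and its adjusted p of 0.0888 was the smallest of all 12393 genes in that comparison. The adjusted p was under 0.05 with the hybridisation control mean in the fit and without ECFC replicate 1. With that mean in the fit 641 of all genes passed as well. Mdm2 differed by -0.27 ± 0.10 with ECFC (adjusted p = 0.678) and by -0.23 ± 0.10 with the combination (adjusted p = 0.599).

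The combination held 110000 cells, as many as the 2 single doses together. Birc3 read 5.68, 5.70 and 5.80 with the combination. These 3 arrays lay above saline by 0.17 ± 0.12 (adjusted p = 0.775) and below every array of either single injection. The sum of the single effects would have put the combination 1.12 higher than it was (difference -1.12 ± 0.16, adjusted p = 0.00668), and this p was the smallest of all genes. At P12 the same contrast gave Birc3 0.02 (95% interval -0.32 to 0.36). Microglia markers averaged 7.72 to 8.15 with the combination, 7.91 to 8.73 with ECFC, 7.74 to 10.01 with CD34+ cells and 7.45 to 8.18 with saline, and their part in the Birc3 values was not tested. At P5, 0.186% of genes passed this test, 23 in all. The call held in 19 of 20 alternatives and was lost with the dim second probe set (-0.13). Without CD34+ replicate 1 it was -1.06 (adjusted p = 0.00662).

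Fas with the combination also lay below all 3 CD34+ arrays. It read 4.66, 4.40 and 4.65 with the combination, inside the range of saline, and the difference from the sum of the single effects was -1.05 ± 0.27 (adjusted p = 0.0741). This Fas difference passed without CD34+ replicate 1 (-1.33, adjusted p = 0.0127), under quantile normalization (-1.06, 0.0285) and with the hybridisation control mean (-0.74, 0.0271) or the lens mean (-1.16, 0.0297) in the fit. Set directly against P5 CD34+ retinas, where 7.83% of all genes differed, the combination had lower Fas (-1.17 ± 0.19, adjusted p = 0.000943), Birc3 (-0.46 ± 0.12, adjusted p = 0.015) and Ccng1 (-0.43 ± 0.13, adjusted p = 0.0367). Against P5 ECFC, where 7.08% of all genes differed, P5 CD34+ retinas had higher Fas (1.28 ± 0.19, adjusted p = 0.000972) and Ccng1 (0.53 ± 0.13, adjusted p = 0.0111). All these comparisons share the P5 CD34+ arrays with the one against saline and are not independent of it. Without CD34+ replicate 1, the combination differed from CD34+ cells by -1.45 in Fas (adjusted p = 1.02e-05), -0.62 in Ccng1 (0.000897) and -0.40 in Birc3 (0.0704), and CD34+ cells differed from ECFC by 1.56 in Fas (4.7e-06) and 0.72 in Ccng1 (0.000177). Between the combination and CD34+ cells, Ccng1 was lost without any 1 of CD34+ replicates 2 and 3 or combination replicates 1, 2 and 3 (adjusted p = 0.0731 to 0.228), and also with the lens mean in the fit or on another probe set (0.0784 and 0.106). In the same pair Birc3 was also lost without combination replicate 1 or 2 (0.063 and 0.0637) and under quantile normalization (0.0674). The Ccng1 difference between CD34+ cells and ECFC was lost without CD34+ replicate 2 (0.32, adjusted p = 0.0572).

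**Figure D4:**
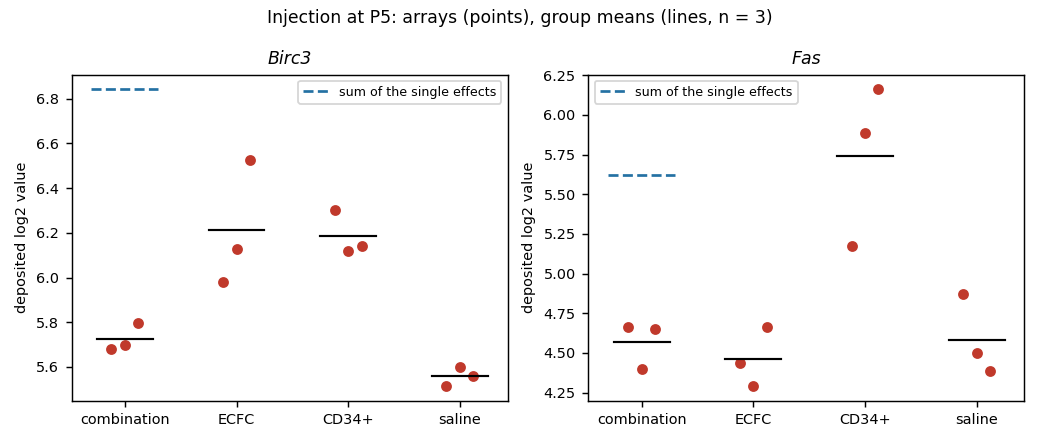
Birc3 and Fas after injection at P5, with points for arrays, solid lines for group means (n = 3) and a dashed line where the sum of the ECFC and CD34+ effects would place the combination (log2). Birc3 with the combination lies at 5.68 to 5.80, below each single injection, and Fas with the combination lies at 4.40 to 4.66.

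Whether the CD34+ difference from saline was unlike at P5 and at P12 was tested as the difference of the 2 effects. Day of injection and day of collection cannot be told apart in this test. For Fas it was 1.05 ± 0.27 (adjusted p = 0.0487), and 1.9% of all genes passed. Fas read 4.72, 4.64 and 4.70 with CD34+ cells at P12, against 4.59, 4.61 and 4.54 with saline. For Ccng1 the difference of effects was 0.58 ± 0.18 and for Birc3 0.52 ± 0.16, and neither passed (adjusted p = 0.088 and 0.093). Without P5 CD34+ replicate 1 the values were 1.34 for Fas (adjusted p = 0.0121), 0.77 for Ccng1 (0.0133) and 0.47 for Birc3 (0.188), and Ccng1 also passed with the lens mean in the fit (0.66, 0.0321). The call on Fas held in 8 of 19 alternatives, with values from 0.77 to 1.34 over all of them. It was lost without any 1 of P12 saline replicates 1, 2 and 3, P12 CD34+ replicates 1, 2 and 3, P5 saline replicates 2 and 3 or P5 CD34+ replicate 3 (adjusted p = 0.0761 to 0.118), with median centring (0.0795) and with all probe sets tested (0.053).

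The probe sets of a gene did not always move together. For Cdkn1a they correlated at r = 0.79 over the 30 arrays, and for Ccng1 at 0.77 and 0.44. For Mdm2 the correlation was -0.50: on the second probe set the 12 P12 arrays were the lower ones, at 9.94 to 10.27, and the 12 P5 arrays the higher, at 10.52 to 10.85. By that probe set Mdm2 was lower in P12 saline than in OIR (-0.39, adjusted p = 0.016) and higher in P5 saline than in P12 saline (0.55, adjusted p = 0.000836), the reverse of the kept one. For Trp53inp1 the correlation was -0.23 and for Birc3 0.16, where the second probe set was dim (4.61 to 5.71). The transcripts that each probe set reads were not looked up here. The direction of Mdm2 and Trp53inp1 in the saline comparisons thus depends on the probe set.

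**Figure D5:**
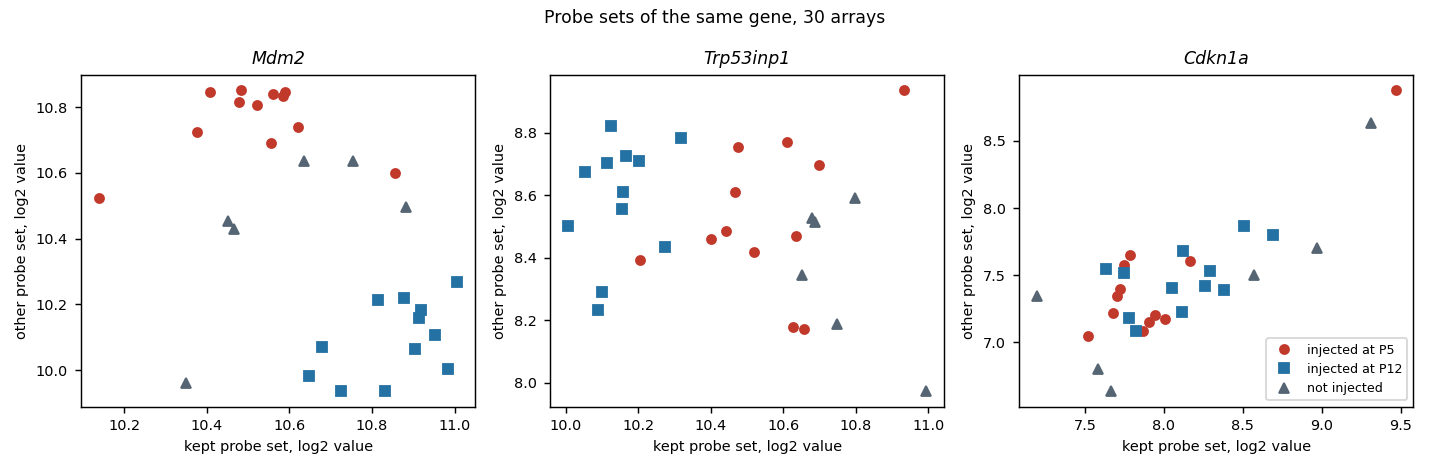
The kept probe set (x axis) against another probe set of the same gene (y axis) for Mdm2, Trp53inp1 and Cdkn1a, log2 values of 30 arrays. For Mdm2 the P12 arrays lie high on one axis and low on the other (r = -0.50), while the Cdkn1a probe sets rise together (r = 0.79).

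Over the 10 group means, Fas and Gadd45a correlated at r = 0.86, Mdm2 and Ccng1 at 0.75, Cdkn1a and Birc3 at 0.62, and Mdm2 and Trp53inp1 at -0.74. The points are groups that share controls and array conditions, so these values describe the data only. Among 1903 genes whose group means spanned at least 1 log2 unit, the nearest to Cdkn1a was Atf5 (r = 0.97 over 10 group means, 0.79 over 30 arrays), to Ccng1 Fos (0.93 and 0.35), to Mdm2 Tiparp (0.94 and 0.77) and to Trp53inp1 Rapgef3 (0.98 and 0.84). The nearest to Fas was Defb2 (0.98 and 0.70), to Bbc3 Rag2 (0.90 and 0.71) and to Gadd45a Bace2 (0.96 and 0.47). The nearest to Birc3 were H2-Ab1, a class II antigen presentation gene (0.92 and 0.86), and Itgb2, a leukocyte integrin (0.90 and 0.63).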

How the data were processed

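Total RNA of 30 mouse retinas was amplified and biotin-labelled with NuGEN kits, per the labels' protocols, and hybridised to 1 array each. The deposited table holds the authors' normalised log2 values for 22690 probe sets, and the submitters' processing notes name Partek. How they were background-corrected, summarised and normalised is not given in the sources used here, and 0 deposited columns were left without a sample. Probe sets were named by the platform annotation: 64 were controls, 20380 had 1 symbol, 691 several and 1555 none. Of those with 1 symbol the probe set of highest mean per gene was kept, which gave 12393 genes.

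limma 3.58.1 in R 4.3.3 was fitted to the log2 values with 1 mean per group (20 residual degrees of freedom). Contrasts were tested two-sided with Benjamini-Hochberg adjustment over all genes, and a gene was called at an adjusted p under 0.05. The 3 arrays in each group limit the precision. The p-values and SE rest on 1 spread between pups, shared by all 10 groups and taken as equal among them. In P5 CD34+ the SD was 0.51 for Fas, 0.40 for Ccng1 and 1.03 for Cdkn1a. The shared residual SD was 0.25, 0.15 and 0.40, so the SE of these genes is small for that group. For Birc3 the SD there was 0.10 against a shared 0.14. The pipeline was tested on simulated data. Replicates held 0 identical pairs. Deviations of arrays with equal replicate numbers correlated at -0.45 to 0.45, never above 0.1 for every pair of a comparison, so arrays were not paired. Figures were drawn with matplotlib from the results.

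The genes, gene lists and tests were chosen with earlier results of these data known. All members were named in every comparison, with up to 3 called genes per other list, 8 fixed genes where measured (Trp53 was not analysed here), and up to 3 genes of nearest pattern per member. Not all genes the rule names are printed. Cdkn2b and the genes of the closing section beyond the rule were chosen after their values were seen, as were the promoter motifs. Alternatives tried were all probe sets as features, quantile normalization, centring on the median, leaving out the dimmest 30% of genes, eBayes with trend and robust settings, a replicate block, only the groups compared, covariates for the hybridisation control and lens means, other probe sets, and leaving out each array. Chosen after seeing the data were the same alternatives for further comparisons and the list counts without P5 CD34+ replicate 1.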

Additional observations from a re-analysis of the deposited data

Results flagged for a closer look

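For Fas, the CD34+ effect at P5 and at P12 differed by 1.05 (log2) in the test of the difference itself, with an adjusted p of 0.0487 (limma). The Fas values lay above P5 saline on all 3 P5 CD34+ arrays and above P12 saline on all 3 P12 CD34+ arrays, by 1.16 and 0.10 on average. The level of Fas in the other groups was as low as that of absent genes, and the part of pigment epithelium markers, which moved with it at P5, was not tested.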

How the results depend on the processing

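Of 2988 values of the 8 genes under the alternatives, 2852 kept their direction and their side of the threshold, or were called in neither setting, 88 lost the call, 35 gained it and 13 turned sign with a call in either setting. A further 213, counted among the 2852, turned sign with a call in neither, Cdkn1a in P5 CD34+ cells without replicate 1 among them. The 13 were Fas in P12 saline against OIR and against normoxia with the hybridisation control mean in the fit (-0.58 and -0.47), and the others came from other probe sets. These were Trp53inp1 in P12 saline against OIR and normoxia (0.39 and 0.38), in P5 saline against normoxia (0.28) and against P12 saline (-0.10), Ccng1 in P12 saline against normoxia (-0.054), Mdm2 in P12 saline against OIR and normoxia (-0.39 and -0.082) and in P5 saline against P12 saline (0.55), and Birc3 in OIR against normoxia (-0.19), P5 saline against OIR (0.013) and the P5 combination against CD34+ cells (0.16). The number of the 8 genes called in P12 saline against OIR, 1 as reported, was 3 with median centring, which added Mdm2 and Ccng1, and 2 with the lens mean in the fit or only the groups compared. In P5 saline against OIR, 2 as reported, it was 1 with all probe sets, without the dimmest 30% of genes or with only the groups compared, 4 with the hybridisation control mean and 0 with the lens mean. In P5 saline against P12 saline, 4 as reported, it was 2 with either covariate or only the groups compared. For P5 ECFC, 0 as reported, it was 2 with the hybridisation control mean, where 641 of all genes passed. For P5 CD34+ cells, 3 as reported, it was 1 without the dimmest genes, which include Fas and Birc3, 0 with only the groups compared and 4 with the hybridisation control mean, which added Trp53inp1 (0.37, adjusted p = 0.0255). With the replicate block, which the array deviations gave no ground for, Mdm2 passed in OIR against normoxia (0.34, adjusted p = 0.0464), as it did with eBayes trend and robust settings and without the dimmest genes (0.049 and 0.0494), Cdkn1a was lost in P5 saline against OIR (adjusted p = 0.0606, 1 gene called) and Birc3 passed for P5 ECFC (adjusted p = 0.0497, 1 gene called). Leaving out 1 array gave 2 to 4 genes in P5 saline against P12 saline, 1 to 2 in P5 saline against OIR, 2 to 3 for P5 CD34+ cells and 0 to 1 for ECFC at P12 (Bbc3) and at P5 (Birc3), both without ECFC replicate 1. Over all genes the called number ranged from 242 to 935 in OIR against normoxia (565 as reported), 1661 to 4836 in P12 saline against OIR (2642), 118 to 2753 in P5 saline against OIR (1077), 2232 to 6138 in P5 saline against P12 saline (3438) and 0 to 1814 for P5 CD34+ cells (1049). It was 0 to 641 for P5 ECFC, 0 to 575 for the P5 combination and 0 to 319 for P12 ECFC (0, 0 and 2 as reported). Fas and the second Birc3 probe set lie near the signal of absent genes, which limits what their differences can show. The kept Birc3 probe set lay little above that signal in normoxia (5.49 to 5.78) and P5 saline (5.51 to 5.60), which are references of its called differences. The causes of these shifts were not tested.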

Other observations

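Some apoptosis genes outside the set differed between saline at P12 and untreated OIR. Endog, a mitochondrial nuclease, fell by 0.71 ± 0.10 (adjusted p = 1.74e-05), Daxx by 0.83 ± 0.13 (adjusted p = 0.000125), Cflar by 0.55 ± 0.08 (adjusted p = 8.67e-05) and Bad by 0.54 ± 0.11 (adjusted p = 0.00121). Aifm1, Dffb, Diablo, Htra2, Birc2, Bcl2 and Bcl2l1 fell as well, by 0.25 to 0.47. No member of the caspase (12 measured), BCL2 (8 and 4) and IAP (6) lists rose in that comparison, where 15.4% of all genes fell and 5.95% rose (1904 and 738 genes). At that share lists of this size would hold few rising genes, so the absence shows little. Daxx and Cflar come from the list of 14 death receptor genes, which the statement does not cover. Centring each array on its median moved the median difference of all genes up by 0.11 and gave 1270 lower and 1352 higher genes. Endog, Htra2, Diablo, Bad and Cflar were higher in P5 saline than in P12 saline, by 0.71, 0.77, 0.41, 0.64 and 0.36. The P12 arrays were also those with the highest hybridisation control means, whose part in these values was not tested.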
